A study of Rattus norvegicus with 12 samples.

Results

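The genes described here drive or mark cell division: the cyclins and cyclin-dependent kinases (Cdks) that time the cycle, the enzymes that copy DNA in S phase, the machinery of mitosis, and the inhibitors that hold the kinases back. They were taken by name from a list of 53 genes, keeping probe sets annotated to exactly 1 gene symbol. Of these, 51 were measured, by 74 probe sets, among 14217 genes with such a probe set. Rrm2 and Tpx2 had no probe set with a single symbol. The 51 genes fall into 9 G1 genes, 10 S phase genes, 7 genes of G2 and mitotic entry, 19 genes of mitotic chromosomes, spindle and cytokinesis, 4 genes of Cdk inhibitors and the Cdk phosphatase Cdkn3, and the other Cdca genes Cdca4 and Cdca7.

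In dividing cells, D-type cyclins with Cdk4 and Cdk6 release E2F transcription factors from the retinoblastoma protein, and E2F then switches on genes of DNA synthesis. Cyclin B with Cdk1 later starts mitosis, and genes of this phase are commonly switched on late through promoter elements called the cell cycle genes homology region (CHR) and the CCAAT box. In hippocampal tissue most neurons no longer divide, while glial cells, microglia, vascular cells and progenitors can.

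Expression was measured on 12 Affymetrix rat arrays from organotypic hippocampal slice cultures, which are living brain slices kept on a membrane. All groups shared the same culture: hippocampi of Wistar rats at postnatal day 7, cut at 350 µm and kept for 26 days in vitro (DIV) at 33 °C, with 24 cultures pooled for each RNA sample. Cultures named 7B12 received the mouse monoclonal antibody 7B12, directed to amino acids 763 to 820 of the neurite growth inhibitor Nogo-A, and cultures named 11C7 received the mouse monoclonal antibody 11C7, to amino acids 623 to 640. Cultures named IgG received a control antibody against the plant hormone auxin of wheat, and cultures named NT received none. Each antibody was given at 3 µg/ml from 21 DIV for 5 days with medium changed every 2 days. Each group has 3 replicates, numbered 1 to 3 in the labels, from separate cultures of different animals, and the labels do not say what arrays of the same number share. The pooled slices hold many cell types, so that fewer cells of a type and less RNA per cell cannot be told apart.

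The deposited values are ratios to a reference of the probe set. Each was put on a log2 scale, the array's own median was subtracted, and the probe sets of a gene were averaged, so that a value says how a gene stands in 1 array against its other arrays and nothing of its level against another gene. In all lists of values below, 3 values of a group are those of replicates 1, 2 and 3. Changes are differences of group means on this log2 scale with their standard error (SE), fitted in limma over all 12 arrays with Benjamini-Hochberg adjustment over the 14217 genes. Cdk6 and Cenpa rest on probe sets whose median over the 12 arrays was under 1, and their spread was the largest among the members. Hippocampal slices should hold neurons, astrocytes, oligodendrocytes and microglia. A probe set of 1 symbol existed for 19 of 19 listed neuron markers, 13 of 14 astrocyte and 13 of 14 mature oligodendrocyte markers. The same held for 23 of 26 microglia and macrophage markers. These counts describe the array. The ratios carry no level, so the counts do not show whether a cell type was detected. The arrays 11C7 1 and 7B12 3 stood apart within their groups, and 11C7 2 from the other arrays numbered 2. In 11C7 1 the median of 24 inflammatory genes was 1.22, against -0.19 in 11C7 2 and 0.015 in 11C7 3. In 7B12 3 it was 2.04, against 0.97 in 7B12 1 and 0.64 in 7B12 2. In 11C7 2 the median of the neuron markers was 0.27, against 1.34, 1.00 and 1.29 in 7B12 2, IgG 2 and NT 2.

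Promoter sequences were available for 42 of the 51 members, from RefSeq on the rat assembly GRCr8, each from 250 bases before to 50 bases after the annotated start. They were searched on both strands for CHR (TTTGAA or TTCGAA), for the CCAAT box (CCAAT) and for an E2F site (TTTGGCGC, TTTCCCGC, TTTGCCGC or TTTCGCGC), where matches may overlap. The promoters printed are those of genes on which the comparisons below turn, with an E2F match (Tyms and Mcm5), with matches to all 3 motifs (Cdk1), or with CHR and CCAAT matches (Ccnb2, Mki67 and Top2a). Letters run 5′ to 3′ on the strand of the gene, and capitals mark the matches.
Tyms (chr9:120776034-120776333, minus strand): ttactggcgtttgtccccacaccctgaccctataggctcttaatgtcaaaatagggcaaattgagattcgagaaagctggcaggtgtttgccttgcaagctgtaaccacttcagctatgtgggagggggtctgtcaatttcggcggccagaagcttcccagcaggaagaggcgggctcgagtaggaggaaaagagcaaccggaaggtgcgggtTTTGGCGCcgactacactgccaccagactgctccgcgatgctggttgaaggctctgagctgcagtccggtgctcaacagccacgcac
Mcm5 (chr19:13488563-13488862, plus strand): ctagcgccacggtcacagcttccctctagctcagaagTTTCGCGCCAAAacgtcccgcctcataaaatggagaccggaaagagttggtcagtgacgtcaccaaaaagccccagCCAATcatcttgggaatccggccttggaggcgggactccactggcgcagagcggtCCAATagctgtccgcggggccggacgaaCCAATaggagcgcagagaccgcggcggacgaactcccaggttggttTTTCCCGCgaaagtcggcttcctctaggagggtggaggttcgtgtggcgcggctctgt
Cdk1 (chr20:19265043-19265342, plus strand): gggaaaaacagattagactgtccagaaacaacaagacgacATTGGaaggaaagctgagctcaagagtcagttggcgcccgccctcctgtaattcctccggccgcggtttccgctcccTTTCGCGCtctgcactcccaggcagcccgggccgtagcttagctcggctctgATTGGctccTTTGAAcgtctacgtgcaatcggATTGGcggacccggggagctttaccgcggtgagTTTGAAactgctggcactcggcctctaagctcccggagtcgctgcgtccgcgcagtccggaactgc
Ccnb2 (chr8:79981609-79981908, minus strand): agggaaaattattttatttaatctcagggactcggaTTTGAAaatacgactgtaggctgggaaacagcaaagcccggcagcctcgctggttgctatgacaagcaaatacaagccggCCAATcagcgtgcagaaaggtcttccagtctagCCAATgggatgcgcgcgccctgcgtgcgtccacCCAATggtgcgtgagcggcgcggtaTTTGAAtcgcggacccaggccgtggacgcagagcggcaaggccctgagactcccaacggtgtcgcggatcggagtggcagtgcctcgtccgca
Mki67 (chr1:199952544-199952843, minus strand): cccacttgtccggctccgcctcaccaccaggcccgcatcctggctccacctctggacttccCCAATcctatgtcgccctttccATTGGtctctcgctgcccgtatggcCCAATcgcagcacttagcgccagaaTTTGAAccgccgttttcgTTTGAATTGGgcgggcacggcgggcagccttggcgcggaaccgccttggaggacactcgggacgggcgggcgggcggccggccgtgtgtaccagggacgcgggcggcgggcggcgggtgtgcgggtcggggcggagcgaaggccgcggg
Top2a (chr10:84473044-84473343, minus strand): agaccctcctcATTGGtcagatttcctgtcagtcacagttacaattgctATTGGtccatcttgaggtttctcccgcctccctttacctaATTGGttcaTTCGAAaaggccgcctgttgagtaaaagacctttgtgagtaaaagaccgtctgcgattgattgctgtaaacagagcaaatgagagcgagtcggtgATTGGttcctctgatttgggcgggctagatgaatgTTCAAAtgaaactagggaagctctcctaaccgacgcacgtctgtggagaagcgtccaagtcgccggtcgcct

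CHR was found in 22 of the 42 member promoters (52.4%), against 14.0% of 11733 promoters of genes on the array and 19.5% of all 27457 promoters of this length. CCAAT was found in 28 (66.7%, against 37.3% of genes on the array), E2F in 8 (3.64% of genes on the array), and CHR together with CCAAT in 17 (40.5%, against 5.75%). The motifs were spread by role. E2F was found in 6 of 9 S phase promoters and in 0 of 17 promoters of the chromosome and spindle genes, and CHR in 3 of 9 and 12 of 17. In Mki67 a CHR match and a CCAAT match share bases, and in Mcm5 an E2F match on one strand overlaps one on the other. A match describes the letters only.

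The question of each antibody comparison is which of these genes differ when Nogo-A is bound. No member passed in any of them. Of all genes, 0% were called in each of the 5 contrasts at an adjusted p of 0.05, and of the members 0 of 51. With 7B12 against the mean of NT and IgG, limma gave 3 members an unadjusted p under 0.05, all higher (Tyms, Tk1 and Cdca4), against 3.91% of all genes higher and 2.14% lower. The smallest adjusted p was 0.514. With 11C7 there were 2, both higher (Tyms and Cdca4), against 1.13% of all genes higher and 1.86% lower, and the smallest adjusted p was 1.00. With both antibodies against both controls there were 2, again higher and again Tyms and Cdca4, against 3.17% higher and 1.72% lower of all genes, with a smallest adjusted p of 0.695. The comparisons share their 6 control arrays, and the contrast of both antibodies also shares each antibody's arrays. In IgG against NT there were 2, both lower (Cdca4 and Tk1, smallest adjusted p = 1.00 by limma), against 0.844% of all genes lower and 1.07% higher. In 7B12 against 11C7 there were 0 of 51 (smallest adjusted p = 1.00 by limma), against 2.48% of all genes higher and 1.21% lower. An F test over the 4 groups also called 0 members, with 3 at an unadjusted p under 0.05 against 3.63% of all genes. With the replicate number as a block, limma gave 4 members such a p with 7B12, 3 with 11C7 and 3 with both antibodies, all higher. In IgG against NT there were then 2, both lower, and in 7B12 against 11C7 0. Of all 14217 genes, 972 were higher and 710 lower with 7B12, 396 and 455 with 11C7, and 857 and 551 with both. In IgG against NT they were 243 and 243, and in 7B12 against 11C7 603 and 567.

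Set against the controls of the same replicate number, 16 members were higher in all 3 numbers with 7B12 and 4 lower (19.5% and 15.9% of all genes), and 9 were higher and 2 lower with 11C7 (14.2% and 10.6%). With both antibodies 15 were higher and 3 lower (18.6% and 14.2%), IgG was higher than NT in 5 and lower in 5 (12.1% and 13.1%), and 7B12 was higher than 11C7 in 3 and lower in 2 (12.8% and 14.6%).

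As a whole the members stood slightly above the controls with each antibody. The median member change was 0.11 with 7B12 (37 of 51 above 0), 0.12 with 11C7 (41 of 51) and 0.13 with both (38 of 51), against medians over all genes of 0.012, 0.031 and 0.017 (52.1%, 56.1% and 53.2% above 0). These medians depended on single arrays and on the fit. Leaving out an array without a replicate term leaves the numbers unequally represented, so values with the replicate number as a block are given too. In the fit without the block, without 7B12 3 the 7B12 median was -0.033, without NT 2 -0.0082 and without IgG 2 -0.019, and without 7B12 2 it was 0.29. It was 0.18 without NT 1, 0.16 without IgG 3 and 0.029 without 7B12 1. The 11C7 median was 0.012 without IgG 2, 0.036 without NT 2 and 0.038 without 11C7 1, and 0.20 without NT 1 and without 11C7 2. The median for both antibodies was 0.0031 without NT 2, 0.036 without IgG 2, 0.048 without 7B12 3 and 0.078 without 11C7 1, and 0.21 without NT 1 and 0.22 without 7B12 2. With the block, leaving out 1 array kept the 7B12 median between 0.023 (without 7B12 3) and 0.15 (without 7B12 1) and that of both antibodies between 0.056 (without 11C7 2) and 0.20 (without 11C7 3). The 11C7 median with the block was 0.0098 without 11C7 2, 0.24 without 11C7 3 and between 0.091 and 0.14 without any of the others. In IgG against NT the median was 0.053 (32 of 51 above 0, against 49% of all genes). It was below 0 without NT 2 (-0.17), IgG 1 (-0.022) or IgG 3 (-0.058), and 0.25 without IgG 2, 0.16 without NT 1 and 0.15 without NT 3. With the block it lay between -0.00076 (without NT 2) and 0.093 (without NT 1). In 7B12 against 11C7 it was -0.025 (22 of 51, against 48.8%), with -0.13 without 7B12 3, -0.10 without 7B12 1, -0.093 without 11C7 2 and -0.055 without 11C7 3, and above 0 without 7B12 2 (0.16) or 11C7 1 (0.062). With the block it lay between -0.15 (without 11C7 3) and 0.071 (without 11C7 2).

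For single genes below, values without an array are from the fit without the block unless the block is named. The SE and p-values of their contrasts are also from the fit without the block, which does not pair the replicate numbers.

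**Figure D1:**
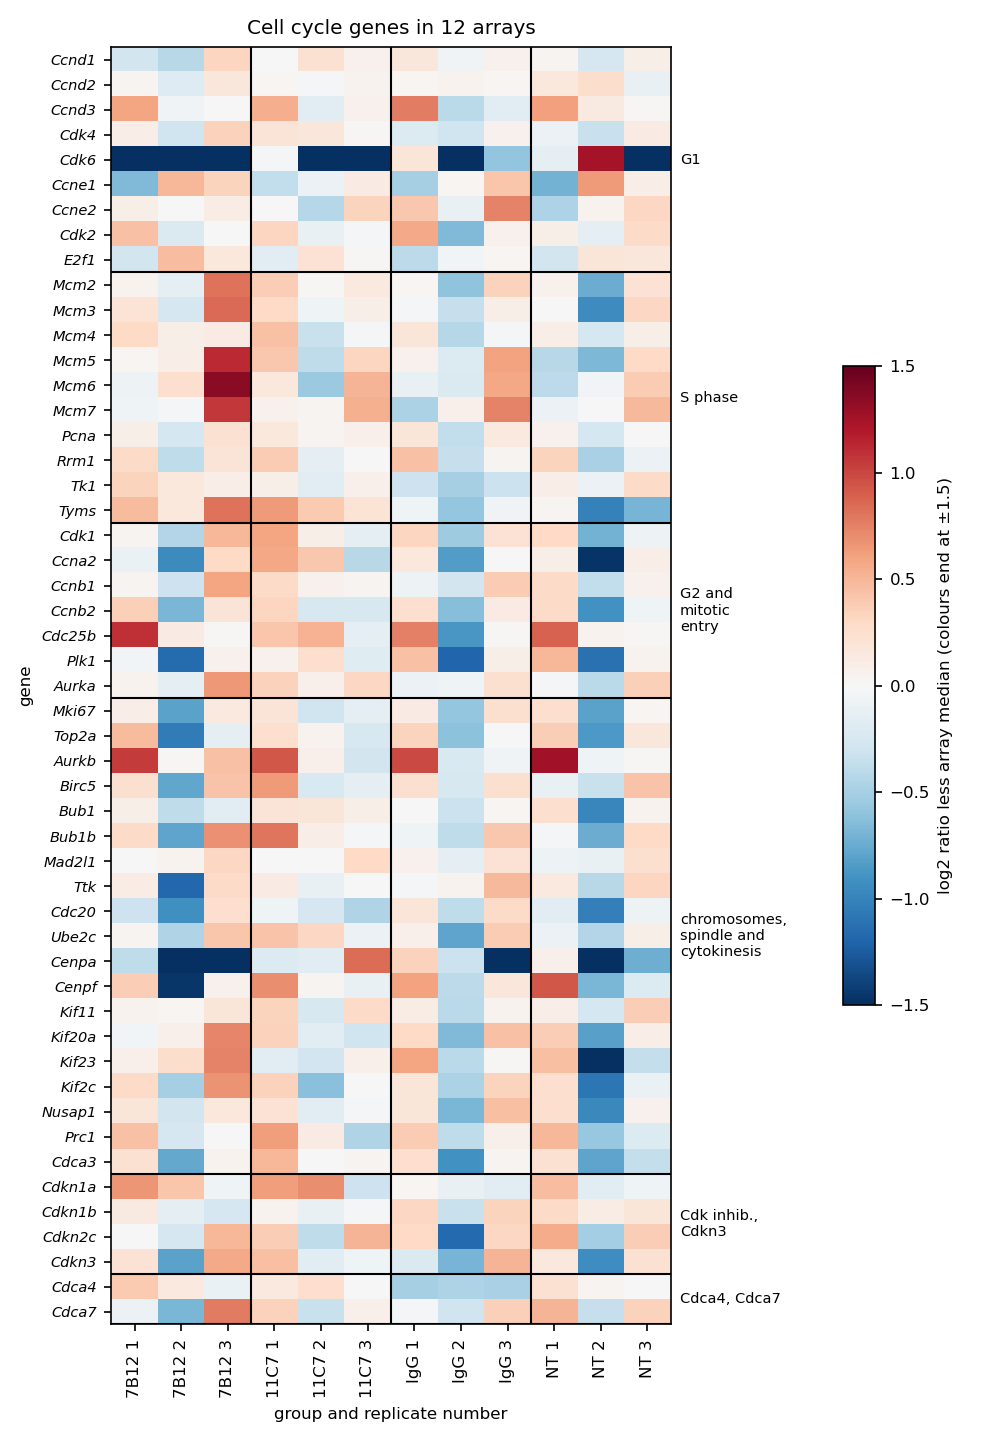
Log2 ratio less the array median for each of the 51 measured genes (rows, grouped by role) in each of the 12 arrays (columns, 3 per group); colours end at ±1.5. The columns of 7B12 2, IgG 2 and NT 2 are mostly blue in the G2, chromosome and spindle rows, and the rows of Mcm2, Mcm3, Mcm5, Mcm6 and Mcm7 are at their reddest in 7B12 3.

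Among the 10 S phase genes, Tyms, the enzyme that makes thymidylate for DNA, stood highest above the controls with either antibody. Its values were 0.47, 0.16 and 0.81 in 7B12, 0.64, 0.39 and 0.21 in 11C7, -0.064, -0.58 and -0.057 in IgG and 0.037, -1.01 and -0.70 in NT. All 6 antibody arrays lay above all 6 control arrays, which held for no other member and for 0.127% of all genes, while 0.0914% lay below. Taken singly, 7B12 lay wholly above the controls in 1 of 51 members (Tyms; 2.52% of all genes above and 1.08% below) and 11C7 in 1 (Tyms; 0.935% above and 0.788% below). Tyms averaged 0.48 ± 0.33 in 7B12 and -0.40 ± 0.43 in the controls (SD, n = 3 and 6), a difference of 0.88 ± 0.25 (SE, 1.84-fold, unadjusted p = 0.00636, adjusted p = 0.514 by limma). With 11C7 the mean was 0.41 ± 0.22 (SD, n = 3) and the difference 0.81 ± 0.25 (1.75-fold, unadjusted p = 0.00996, adjusted p = 1.00 by limma). With both antibodies against both controls it was 0.84 ± 0.21 (1.79-fold, unadjusted p = 0.00236, adjusted p = 0.695 by limma). Tyms thus did not pass over all genes. Its difference kept its sign when any 1 array was left out, between 0.71 and 1.04 for 7B12 and between 0.69 and 0.96 for 11C7. It was 0.72 for 7B12 against IgG alone and 1.04 against NT alone, and IgG stood 0.32 ± 0.29 above NT (SE, adjusted p = 1.00 by limma), or 0.098 without NT 2, 0.62 without NT 1 and 0.50 without IgG 2.

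The Mcm2 to Mcm7 genes encode the ring-shaped helicase that opens DNA at replication forks. Mcm2 had values of 0.050, -0.14 and 0.82 in 7B12, 0.37, 0.018 and 0.15 in 11C7, 0.035, -0.60 and 0.34 in IgG and 0.068, -0.74 and 0.22 in NT. Mcm5 had values of 0.024, 0.10 and 1.12 in 7B12, 0.40, -0.38 and 0.32 in 11C7, 0.062, -0.21 and 0.61 in IgG and -0.42, -0.68 and 0.29 in NT. Mcm6 had values of -0.082, 0.25 and 1.35 in 7B12, 0.16, -0.55 and 0.50 in 11C7, -0.11, -0.22 and 0.58 in IgG and -0.40, -0.045 and 0.38 in NT. In these 3 genes 7B12 3 was the highest of the 12 arrays, and 7B12 1 and 7B12 2 lay within the range of the controls. The same array was highest for Mcm3 and Mcm7 and not for Mcm4. Mcm3 had values of 0.21, -0.25 and 0.85 in 7B12, 0.30, -0.068 and 0.084 in 11C7, -0.021, -0.34 and 0.092 in IgG and 0.0015, -0.95 and 0.30 in NT. Mcm4 had values of 0.30, 0.083 and 0.12 in 7B12, 0.44, -0.33 and -0.028 in 11C7, 0.18, -0.43 and -0.015 in IgG and 0.10, -0.26 and 0.084 in NT. Mcm7 had values of -0.067, -0.013 and 1.06 in 7B12, 0.060, 0.047 and 0.53 in 11C7, -0.47, 0.077 and 0.75 in IgG and -0.094, 0.0015 and 0.49 in NT. For Mcm4, 11C7 1 was the highest array, and for Mcm7 the 4 arrays numbered 3 were the 4 highest. The difference of 7B12 from the controls was 0.47 ± 0.33 for Mcm5 (SE, 1.39-fold), 0.47 ± 0.36 for Mcm6, 0.42 ± 0.30 for Mcm3 and 0.35 ± 0.30 for Mcm2, each with an adjusted p of 1.00 by limma. Without 7B12 3 these were 0.12, 0.052, 0.13 and 0.066. Mcm2 was also lower without NT 2 (0.21) or IgG 2 (0.22) and higher without 7B12 2 (0.55), Mcm3 lower without NT 2 (0.24) and higher without 7B12 2 (0.68), and Mcm6 higher without 7B12 1 (0.77). Mcm5 stood 0.26 above IgG alone. With the replicate number as a block, the differences without 7B12 3 were 0.32 for Mcm5, 0.28 for Mcm6, 0.24 for Mcm3 and 0.19 for Mcm2.

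The other S phase genes stayed close to the controls or differed between them. Tk1, a thymidine kinase that recycles thymidine, had values of 0.34, 0.16 and 0.10 in 7B12, 0.085, -0.17 and 0.080 in 11C7, -0.31, -0.50 and -0.32 in IgG and 0.10, -0.086 and 0.29 in NT. Its 3 IgG arrays lay below all arrays of the other groups, and the 7B12 arrays lay within the range of NT apart from 7B12 1. The difference of 7B12 from the controls was 0.34 ± 0.13 (SE, unadjusted p = 0.0313, adjusted p = 0.740 by limma). It was 0.58 against IgG alone and 0.098 against NT alone, and its 3 probe sets gave 0.63, 0.39 and -0.011. Pcna, the clamp that holds the DNA polymerase on its template, had values of 0.085, -0.26 and 0.23 in 7B12, 0.16, 0.035 and 0.076 in 11C7, 0.18, -0.37 and 0.14 in IgG and 0.068, -0.27 and 0 in NT. Rrm1, the large subunit of the reductase that makes deoxyribonucleotides, had values of 0.28, -0.38 and 0.19 in 7B12, 0.38, -0.14 and 0.0044 in 11C7, 0.44, -0.35 and 0.043 in IgG and 0.33, -0.48 and -0.088 in NT. In both, replicate 2 was the lowest array in each group, and the groups overlapped.

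The S phase list as a whole had 10 of 10 members above 0 with 7B12 (median 0.35, from 0.049 to 0.88) and 10 of 10 with 11C7 (median 0.13, from 0.0063 to 0.81). The medians over the 10 genes in each array were 0.15, 0.035 and 0.82 in 7B12, 0.33, -0.11 and 0.11 in 11C7, 0.0071, -0.36 and 0.12 in IgG and 0.053, -0.37 and 0.25 in NT. 7B12 3 was the highest array and NT 2 the lowest. Set against the control mean of the same number, the list stood 0.12, 0.40 and 0.63 higher in 7B12 1, 2 and 3, and it differed by 0.30, 0.26 and -0.071 in 11C7. In 7B12, 6 of the 10 genes were higher than the controls within each of the 3 numbers (Mcm3, Mcm4, Mcm5, Mcm6, Tk1 and Tyms), against 19.5% of all genes. In 11C7 there were 3 of 10, against 14.2%.

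Microglial and inflammatory genes were measured beside them. With 7B12, 9 of 23 microglia and macrophage markers had an unadjusted p under 0.05 and were higher by limma, and 0 passed after adjustment. Their median in each array was 0.15, 0.20 and 0.92 in 7B12, 0.24, -0.38 and 0.20 in 11C7, -0.20, -0.44 and 0.50 in IgG and -0.18, -0.57 and 0.30 in NT. 7B12 3 was the highest array in both this list and the S phase list, and the groups overlapped. With 11C7 there were 0 of 23. Of 24 inflammatory genes, 19 had such a p with 7B12 and 4 with 11C7, all higher, and 0 passed. Of all genes, 3.91% were higher at such a p with 7B12 and 1.13% with 11C7. Both lists were chosen with earlier results of these data known, so the counts are a description only. The 13 fibroblast and mural cell markers had a median change of 0.43 with 7B12 and -0.21 with 11C7, and the 11 neural stem and neuroblast markers 0.11 and -0.10. The 10 oligodendrocyte precursor markers had a median change of -0.23 with 7B12 (1 of 10 above 0) and -0.014 with 11C7, and the 12 endothelial markers -0.27 (3 of 12 above 0) and 0.025. The 13 mature oligodendrocyte markers stood at -0.23 (3 of 13 above 0) and 0.16, the 13 astrocyte markers at -0.085 and -0.15, and the 19 neuron markers at 0.060 and -0.27. The part of any of these in the S phase values was not tested.

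**Figure D2:**
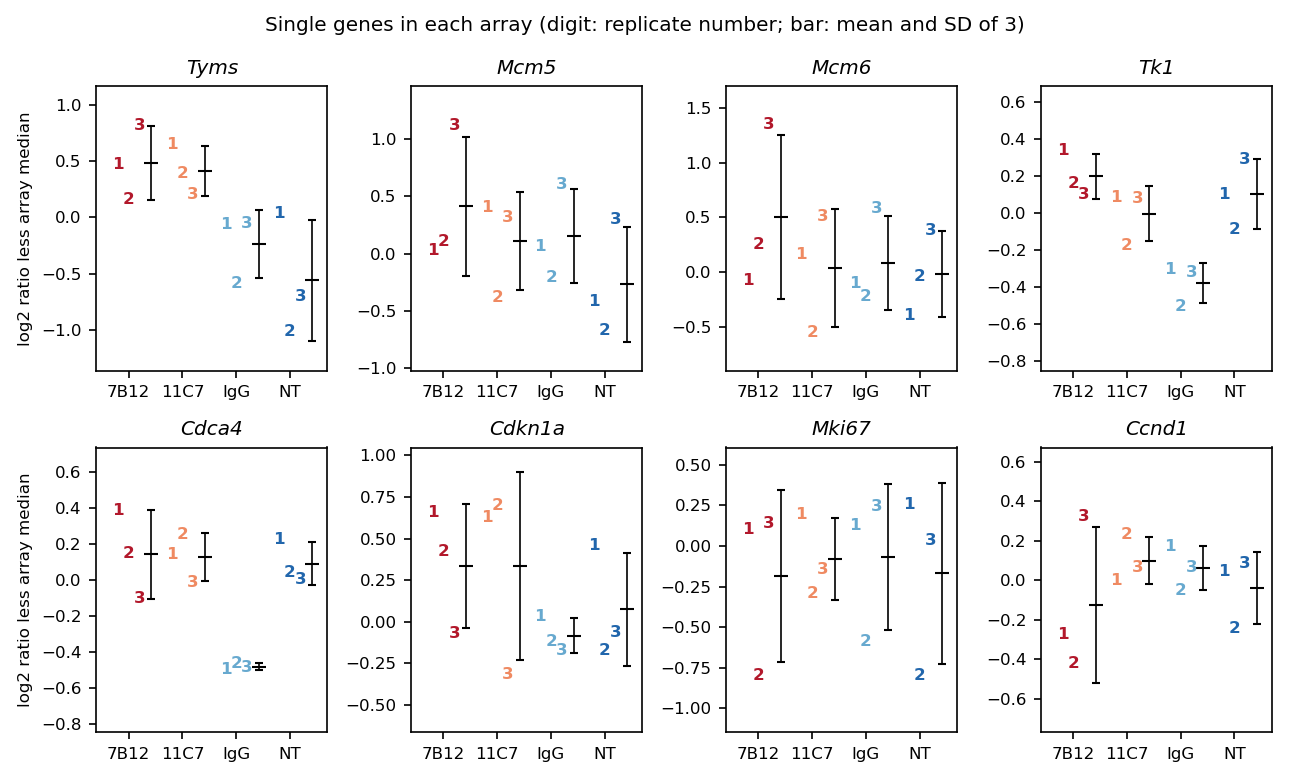
Log2 ratio less the array median of 8 genes in each array; each digit is an array and gives its replicate number, and the bar gives the mean and SD of 3 arrays. Tyms lies higher in all 6 antibody arrays than in all 6 control arrays, Cdca4 and Tk1 lie lowest in the IgG arrays, and Mki67 overlaps among the 4 groups.

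The 9 G1 genes did not move together with either antibody, with 5 of 9 above 0 with 7B12 (median 0.022) and 4 of 9 with 11C7 (median -0.017). Ccnd1, a D-type cyclin, had values of -0.28, -0.42 and 0.32 in 7B12, -0.00077, 0.23 and 0.066 in 11C7, 0.17, -0.054 and 0.067 in IgG and 0.043, -0.25 and 0.086 in NT. 7B12 3 was its highest array and 7B12 2 its lowest, so the spread within 7B12 exceeded the difference from 11C7 (-0.22 ± 0.20, SE, adjusted p = 1.00 by limma), which was -0.15 without 7B12 1, -0.077 without 7B12 2 and -0.45 without 7B12 3. Cdk4, a kinase partner of the D-type cyclins, had values of 0.095, -0.29 and 0.35 in 7B12, 0.19, 0.17 and 0.020 in 11C7, -0.20, -0.30 and 0.060 in IgG and -0.084, -0.33 and 0.12 in NT. Its arrays NT 2, IgG 2 and 7B12 2 were the 3 lowest, and both antibodies stood 0.21 ± 0.14 above both controls (SE, adjusted p = 1.00 by limma), or 0.14 without 7B12 3. Cdk6, the other such kinase, had values of -3.02, -1.93 and -1.84 in 7B12, -0.015, -2.28 and -2.47 in 11C7, 0.18, -2.94 and -0.60 in IgG and -0.15, 1.25 and -1.68 in NT. The groups overlapped over a wide range, with a difference of -1.61 ± 0.86 for 7B12 from the controls (SE, adjusted p = 0.923 by limma).

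The E-type cyclins, which act with Cdk2 at the start of S phase, went separate ways. Ccne2 had values of 0.088, 0.012 and 0.12 in 7B12, 0.0083, -0.43 and 0.34 in 11C7, 0.40, -0.11 and 0.74 in IgG and -0.46, 0.054 and 0.31 in NT. The groups overlapped, and IgG stood 0.38 ± 0.28 above NT (SE, adjusted p = 1.00 by limma), or 0.16 without NT 1, 0.18 without IgG 3, 0.60 without IgG 2 and 0.24 on the less variable of its 2 probe sets. Ccne1 had values of -0.67, 0.50 and 0.34 in 7B12, -0.37, -0.094 and 0.13 in 11C7, -0.50, 0.035 and 0.41 in IgG and -0.70, 0.63 and 0.10 in NT. E2f1, the transcription factor of the S phase genes, had values of -0.28, 0.46 and 0.16 in 7B12, -0.17, 0.21 and 0.019 in 11C7, -0.39, -0.045 and 0.029 in IgG and -0.27, 0.19 and 0.17 in NT. In both genes the arrays numbered 1 were the 4 lowest. Ccnd3 was the opposite, with values of 0.60, -0.053 and 0.0030 in 7B12, 0.54, -0.17 and 0.062 in 11C7, 0.77, -0.41 and -0.17 in IgG and 0.61, 0.13 and 0.018 in NT. Its 4 highest arrays were those numbered 1. The remaining G1 genes, Ccnd2 and Cdk2, lay between -0.19 and 0.26 and between -0.67 and 0.57.

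Of the 7 genes of G2 and mitotic entry, 6 stood above 0 with 7B12 (median 0.11) and 7 with 11C7 (median 0.24). Cdk1, the kinase that starts mitosis, had values of 0.044, -0.43 and 0.50 in 7B12, 0.60, 0.082 and -0.14 in 11C7, 0.32, -0.53 and 0.22 in IgG and 0.30, -0.70 and -0.074 in NT. Ccna2, the A-type cyclin of S and G2 phase, had values of -0.10, -0.96 and 0.30 in 7B12, 0.58, 0.41 and -0.42 in 11C7, 0.16, -0.84 and -0.0044 in IgG and 0.089, -1.47 and 0.10 in NT. In both genes NT 2, IgG 2 and 7B12 2 were the 3 lowest arrays and 11C7 2 was not low. Against the controls, 11C7 differed by 0.26 ± 0.31 for Cdk1 and by 0.52 ± 0.44 for Ccna2 (SE, adjusted p = 1.00 each by limma). Set against the controls of the same number, Ccna2 differed by 0.46, 1.56 and -0.46 in 11C7 1, 2 and 3, and Cdk1 by 0.29, 0.70 and -0.21. In both genes 11C7 2 lay furthest above its controls and 11C7 3 lay below. Without 11C7 1 the changes were 0.050 for Cdk1 and 0.32 for Ccna2, without NT 2 they were 0.12 and 0.26, and without 11C7 3 they were 0.42 and 0.83, and Cdk1 was at 0.13 without IgG 2. With the replicate number as a block, Cdk1 and Ccna2 in that order stood 0.18 and 0.50 above the controls without 11C7 1, 0.049 and 0.019 without 11C7 2, and 0.55 and 1.04 without 11C7 3.

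The B-type cyclins are the partners of Cdk1 in mitosis. Ccnb1 had values of 0.047, -0.32 and 0.59 in 7B12, 0.28, 0.065 and 0.041 in 11C7, -0.079, -0.28 and 0.38 in IgG and 0.29, -0.37 and 0.064 in NT. Ccnb2 had values of 0.35, -0.69 and 0.19 in 7B12, 0.33, -0.25 and -0.24 in 11C7, 0.25, -0.63 and 0.12 in IgG and 0.29, -0.91 and -0.060 in NT. Replicate 2 was the lowest array in each group for Ccnb2, and in all groups but 11C7 for Ccnb1. Aurka, a kinase of the spindle poles, had values of 0.054, -0.13 and 0.65 in 7B12, 0.35, 0.072 and 0.31 in 11C7, -0.088, -0.062 and 0.24 in IgG and -0.024, -0.41 and 0.36 in NT. The groups overlapped, and both antibodies stood 0.21 ± 0.18 above both controls (SE, adjusted p = 1.00 by limma), or 0.12 without NT 2, 0.099 without 7B12 3 and 0.14 with arrays weighted by their quality. Plk1 and Cdc25b, a kinase and a phosphatase of mitotic entry, lay between -1.19 and 0.50 and between -0.87 and 1.09.

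The 19 genes of mitotic chromosomes, spindle and cytokinesis had a median change of 0.094 with 7B12 (12 of 19 above 0), 0.12 with 11C7 (16 of 19) and 0.12 in IgG against NT (17 of 19). Mki67, whose protein coats mitotic chromosomes and is used to count dividing cells, had values of 0.10, -0.80 and 0.14 in 7B12, 0.20, -0.30 and -0.15 in 11C7, 0.13, -0.59 and 0.25 in IgG and 0.26, -0.80 and 0.034 in NT. Top2a, the topoisomerase that untangles sister chromosomes, had values of 0.47, -1.05 and -0.14 in 7B12, 0.26, 0.057 and -0.24 in 11C7, 0.33, -0.62 and 0.0038 in IgG and 0.37, -0.86 and 0.18 in NT. Neither separated the groups. The lowest 7B12 array lay below all controls in Top2a and level with NT 2 in Mki67, and in both genes replicate 2 was the lowest array of 7B12, IgG and NT.

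Within the list, the motor gene of cytokinesis Kif23 had values of 0.071, 0.27 and 0.75 in 7B12, -0.17, -0.28 and 0.080 in 11C7, 0.59, -0.40 and 0.012 in IgG and 0.45, -1.54 and -0.36 in NT. NT 2 was by far its lowest array, and 7B12 stood 0.57 ± 0.39 above the controls (SE, adjusted p = 1.00 by limma), or 0.31 without NT 2 and 0.38 without 7B12 3. It was 0.29 against IgG alone, and its 2 probe sets gave 0.13 and 1.01. With the block it was 0.34 without 7B12 2 and 0.95 without 7B12 1. Cenpa, the histone variant of centromeres, had values of -0.38, -3.72 and -1.88 in 7B12, -0.20, -0.17 and 0.84 in 11C7, 0.35, -0.32 and -2.69 in IgG and 0.071, -3.76 and -0.73 in NT. Its arrays ran over more than 4 log2 units, and the difference of 7B12 from 11C7 (-2.15 ± 1.16, SE, adjusted p = 1.00 by limma) was -1.29 without 7B12 2. Cdca3 had values of 0.23, -0.76 and 0.049 in 7B12, 0.50, 0 and 0.046 in 11C7, 0.25, -0.91 and 0.043 in IgG and 0.22, -0.79 and -0.35 in NT. All 3 of its 11C7 arrays lay above the controls of the same number, by 0.27, 0.85 and 0.20, with a difference of 0.44 ± 0.33 over the groups (SE, adjusted p = 1.00 by limma), or 0.28 without 11C7 1 and 0.26 without IgG 2.

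Further genes of the list are named here because they differed among the replicate numbers, as given below. Aurkb, the kinase of the chromosomal passenger complex, had values of 1.04, 0.019 and 0.44 in 7B12, 0.94, 0.079 and -0.28 in 11C7, 0.99, -0.23 and -0.054 in IgG and 1.26, -0.063 and 0.012 in NT. Mad2l1, of the spindle checkpoint, had values of 0.010, 0.058 and 0.31 in 7B12, 0.0050, 0.0086 and 0.30 in 11C7, 0.061, -0.13 and 0.22 in IgG and -0.081, -0.11 and 0.24 in NT. For Aurkb the arrays numbered 1 were the 4 highest, and for Mad2l1 those numbered 3. Cenpf, a kinetochore gene, had values of 0.37, -1.46 and 0.066 in 7B12, 0.70, 0.041 and -0.11 in 11C7, 0.61, -0.39 and 0.16 in IgG and 0.93, -0.69 and -0.20 in NT. Kif2c, a kinesin that shortens microtubules, had values of 0.29, -0.50 and 0.67 in 7B12, 0.34, -0.63 and 0.0040 in 11C7, 0.18, -0.47 and 0.34 in IgG and 0.25, -1.08 and -0.10 in NT. In Kif2c the arrays numbered 2 were the 4 lowest of the 12, and in Cenpf 3 of them were. Nusap1, of spindle microtubules, had values of 0.19, -0.27 and 0.15 in 7B12, 0.21, -0.16 and -0.024 in 11C7, 0.18, -0.69 and 0.45 in IgG and 0.26, -0.97 and 0.060 in NT. Prc1, of the spindle midzone, had values of 0.44, -0.25 and 0.0045 in 7B12, 0.62, 0.12 and -0.46 in 11C7, 0.38, -0.38 and 0.078 in IgG and 0.49, -0.57 and -0.21 in NT. Replicate 2 was the lowest of its group in Nusap1 throughout and in Prc1 in all groups but 11C7. The other genes of the list (Birc5, Bub1, Bub1b, Ttk, Cdc20, Ube2c, Kif11 and Kif20a) lay between -1.18 and 0.81 in all arrays.

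Cdkn1a, the Cdk inhibitor induced by p53, had values of 0.66, 0.42 and -0.070 in 7B12, 0.63, 0.70 and -0.32 in 11C7, 0.034, -0.12 and -0.17 in IgG and 0.46, -0.17 and -0.064 in NT. Replicates 1 and 2 of both antibodies lay at the top together with NT 1, and 11C7 3 was the lowest array. Both antibodies stood 0.34 ± 0.21 above both controls (SE, 1.27-fold, adjusted p = 1.00 by limma). Cdkn1b, a related inhibitor, had values of 0.14, -0.13 and -0.26 in 7B12, 0.047, -0.12 and -0.016 in 11C7, 0.31, -0.33 and 0.33 in IgG and 0.28, 0.12 and 0.18 in NT. The groups overlapped, and both antibodies differed from both controls by -0.20 ± 0.14 (SE, adjusted p = 1.00 by limma), or by -0.31 without IgG 2. Cdkn2c, an inhibitor of Cdk4 and Cdk6, had values of -0.00012, -0.25 and 0.50 in 7B12, 0.37, -0.38 and 0.51 in 11C7, 0.30, -1.17 and 0.31 in IgG and 0.55, -0.51 and 0.37 in NT. Cdkn3, a phosphatase that acts on Cdk2, had values of 0.22, -0.81 and 0.57 in 7B12, 0.45, -0.17 and -0.069 in 11C7, -0.22, -0.70 and 0.51 in IgG and 0.16, -0.94 and 0.22 in NT. Replicate 2 was the lowest array of each group in both genes.

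Cdca4 and Tk1 were the members in which IgG stood apart from NT. Cdca4, which encodes a nuclear regulator of E2F-dependent transcription, had values of 0.39, 0.15 and -0.10 in 7B12, 0.14, 0.25 and -0.011 in 11C7, -0.50, -0.46 and -0.49 in IgG and 0.23, 0.045 and 0.0055 in NT. The 3 IgG arrays were the lowest of the 12 and lay close together, and the 7B12, 11C7 and NT arrays overlapped. IgG differed from NT by -0.57 ± 0.16 for Cdca4 (SE, 0.67-fold, unadjusted p = 0.00495) and by -0.48 ± 0.15 for Tk1 (unadjusted p = 0.0118), with an adjusted p of 1.00 each by limma. All IgG arrays lay below all NT arrays in these 2 of 51 members (1.94% of all genes) and above them in 0 (2.24%). The probe sets of each gene disagreed. On 1 Cdca4 probe set the values were -1.28, -0.39 and -0.95 in IgG and 0.31, 0.40 and 0.28 in NT, a difference of -1.21. On the other they were 0.29, -0.53 and -0.021 in IgG and 0.15, -0.31 and -0.27 in NT, a difference of 0.059. The 3 Tk1 probe sets gave differences of -0.74, -0.57 and -0.12, and none of them had all IgG arrays below all NT arrays. Against the mean of both controls, 7B12 stood 0.34 ± 0.14 higher for Cdca4 (SE, unadjusted p = 0.0343) and 11C7 0.32 ± 0.14 (unadjusted p = 0.0412), with adjusted p = 0.759 and 1.00 by limma. Against NT alone these differences were 0.051 and 0.037, and against IgG alone 0.62 and 0.61. Without 7B12 1 the first was 0.22. Cdca7, a target of Myc and E2F, had values of -0.087, -0.69 and 0.78 in 7B12, 0.34, -0.34 and 0.076 in 11C7, -0.012, -0.29 and 0.36 in IgG and 0.51, -0.35 and 0.35 in NT, with 7B12 3 the highest and 7B12 2 the lowest array.

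Between the antibodies, the S phase list stood higher in 7B12 than in 11C7 (median difference 0.12, 8 of 10 above 0), and the chromosome and spindle list lower (-0.10, 6 of 19 above 0). By number, the S phase list of 7B12 differed from that of 11C7 by -0.19, 0.14 and 0.70 and the chromosome and spindle list by -0.23, -0.38 and 0.29. The sign turned between the numbers in both lists. All 3 7B12 arrays lay above all 3 11C7 arrays in 1 of 51 members, Tk1, against 3.72% of all genes, and below in 2, Bub1 and Cenpa, against 3.43%.

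**Figure D3:**
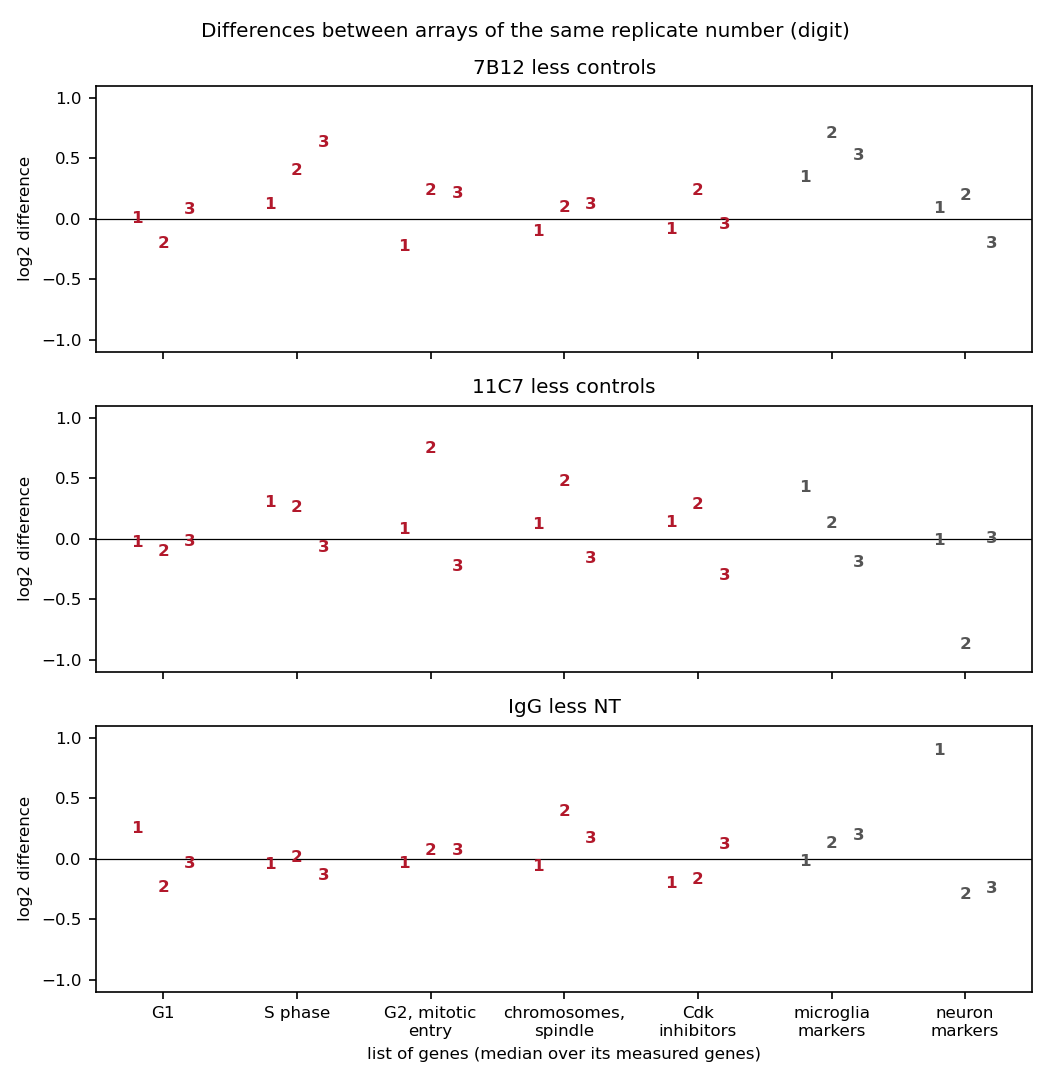
Log2 differences between arrays of the same replicate number (the digit), as the difference of list medians, for 7B12 less the controls (top), 11C7 less the controls (middle) and IgG less NT (bottom); red digits are lists of members and grey digits are marker lists. The S phase and microglia lists lie above 0 in all 3 numbers for 7B12, and in 11C7 number 2 stands apart with mitotic lists above 0 and neuron markers below 0.

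More members differed among the replicate numbers than among the treatments. A limma F test over the 3 numbers, with the group in the model, called 22 of 51 members (43.1%), against 23.6% of all genes, and 34 had an unadjusted p under 0.05. Of the 22, 19 were lowest in number 2, 3 in number 1 (Ccne1, E2f1 and Mcm7) and 0 in number 3, whereas 6.34% of all genes were called and lowest in number 2. The F test asks for any difference among the numbers and not for a low number 2. In Aurkb, Ccnd3, Mcm6 and Mad2l1 number 2 lay close to another number. The means in numbers 1, 2 and 3 were 0.63, -0.13 and -0.021 for Ccnd3. They were -0.11, -0.14 and 0.70 for Mcm6 and -0.0012, -0.043 and 0.27 for Mad2l1. The 22 were Ccnd3, Ccne1 and E2f1 of the G1 genes, Mcm2, Mcm4, Mcm5, Mcm6, Mcm7 and Rrm1 of S phase, Ccnb2 of G2, and Mki67, Top2a, Aurkb, Mad2l1, Cenpf, Kif2c, Nusap1, Prc1 and Cdca3 of mitosis, beside Cdkn2c, Cdkn3 and Cdca7. The count depended on single arrays. It was 7 without NT 1, 9 without NT 2, IgG 1 or IgG 3, 10 without NT 3, IgG 2 or 7B12 1, 12 without 7B12 2 or 7B12 3, 14 without 11C7 1, 23 without 11C7 2, 27 without 11C7 3 and 24 without all 3 11C7 arrays. The share of all genes called was 9.51% without NT 1, 24.5% without 11C7 2, 20.9% without 11C7 3 and 20.7% without the 11C7 arrays, so that in the last 2 settings the count of members was higher and the share of all genes lower than with all arrays.

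Aurkb had the smallest adjusted p, with means of 1.06 ± 0.14 in number 1, -0.048 ± 0.13 in number 2 and 0.030 ± 0.30 in number 3 (SD, n = 4 arrays, adjusted p = 0.00439 by limma). Mki67 averaged 0.17 ± 0.069, -0.62 ± 0.24 and 0.069 ± 0.17 in numbers 1, 2 and 3 (adjusted p = 0.0152 by limma). Ccnb2 averaged 0.31 ± 0.043, -0.62 ± 0.28 and 0.0052 ± 0.19 (adjusted p = 0.0141 by limma). Both stood lowest in number 2 in every group. Kif2c averaged 0.27 ± 0.068, -0.67 ± 0.28 and 0.23 ± 0.35 (adjusted p = 0.00899 by limma). Rrm1 averaged 0.36 ± 0.066, -0.34 ± 0.14 and 0.039 ± 0.12 (adjusted p = 0.00838 by limma). Mcm7 was lowest in number 1, with -0.14 ± 0.23, 0.028 ± 0.041 and 0.71 ± 0.26 (adjusted p = 0.0164 by limma), and stood highest in number 3. For the other 16 called members the adjusted p lay between 0.0107 and 0.0494.

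Within single groups, number 2 was the lowest of the 3 arrays in 37 of 51 members in 7B12 (33.3% of all genes), 27 in 11C7 (30.6%), 42 in IgG (35.5%) and 41 in NT (33.5%). For the 19 chromosome and spindle genes these counts were 16, 8, 17 and 19. The list medians in each array were 0.11, -0.50 and 0.25 in 7B12, 0.34, -0.11 and -0.033 in 11C7, 0.18, -0.39 and 0.22 in IgG and 0.25, -0.79 and 0.049 in NT. NT 2 was the lowest array and 11C7 2 the least low of the 4 numbered 2. For the G2 list they were 0.047, -0.43 and 0.30 in 7B12, 0.35, 0.082 and -0.14 in 11C7, 0.25, -0.63 and 0.12 in IgG and 0.29, -0.70 and 0.051 in NT, where 11C7 2 lay above 0 and 7B12 2, IgG 2 and NT 2 were the 3 lowest arrays.

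Marker genes of several cell types differed among the numbers too, against 23.6% of all genes called. The median of the 19 neuron markers in each array was -1.49, 1.34 and -0.17 in 7B12, -1.60, 0.27 and 0.033 in 11C7, -1.13, 1.00 and -0.092 in IgG and -2.03, 1.29 and 0.15 in NT. Number 1 was lowest in every group and number 2 highest, and 15 of 19 neuron markers were called in the F test over numbers, all lowest in number 1. Of the 23 microglia and macrophage markers 15 were called, 13 of them lowest in number 2. The median of the 12 endothelial markers was 0.069, -0.64 and -0.11 in 7B12, 0.062, -0.62 and 0.25 in 11C7, 0.33, -0.48 and 0.17 in IgG and 0.59, -0.43 and 0.16 in NT, with number 2 the lowest array of each group, and 4 of 12 were called. Of 13 mature oligodendrocyte markers, 10 were called and lowest in number 1. Of oligodendrocyte precursor markers 4 of 10 were called, and of fibroblast and mural cell markers 5 of 13. Astrocyte markers (2 of 13) and neural stem and neuroblast markers (2 of 11) lay below the share of all genes. In 11C7 2 the G2 list stood at 0.082 and the chromosome and spindle list at -0.11. The latter was the lowest of the 11C7 arrays and the least low of the arrays numbered 2. Neuron markers in 11C7 2 were less high than in the other arrays numbered 2. The part of these markers in the values of the cell cycle genes was not tested.

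**Figure D4:**
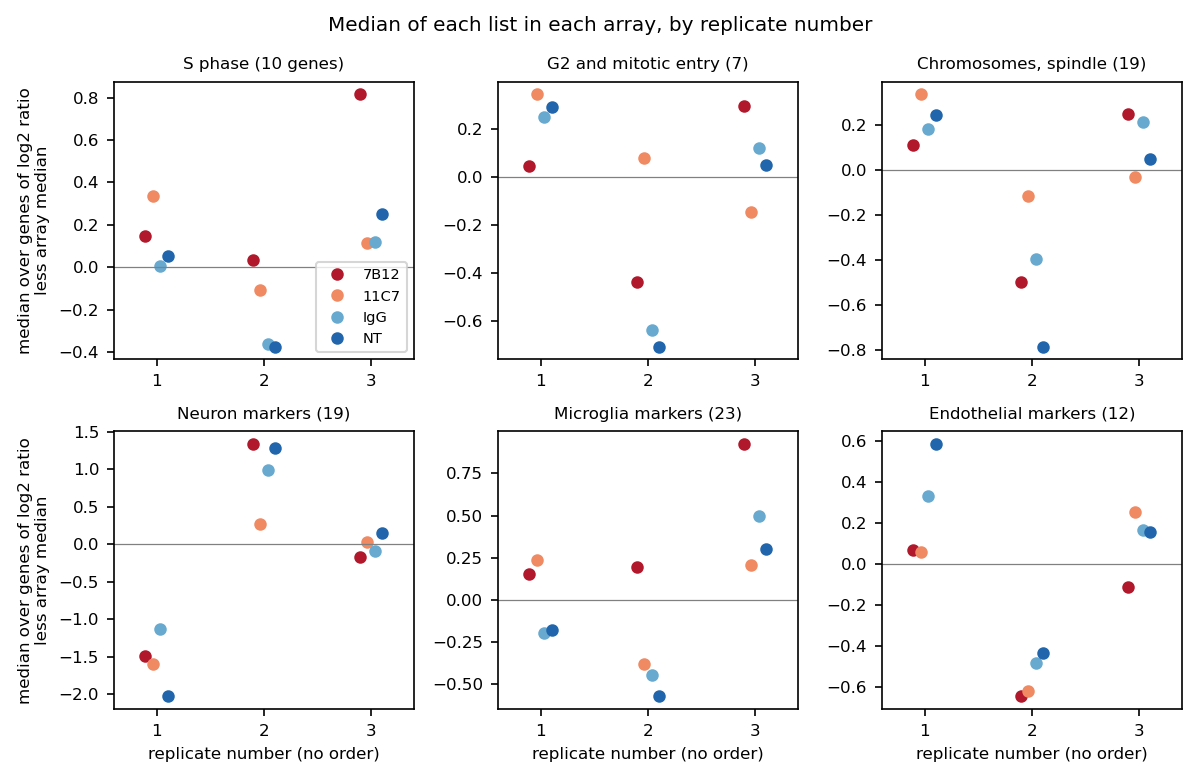
Median over the genes of a list of the log2 ratio less the array median, for 3 lists of members (top) and 3 lists of cell type markers (bottom) in each of the 12 arrays, by replicate number, which has no order; points are arrays and colours are groups. The G2 and the chromosome and spindle lists lie lowest in 7B12 2, IgG 2 and NT 2, where neuron markers lie highest and endothelial markers low.

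Genes outside the list but of the same pathways were taken from lists drawn up by pathway. Of 41 other DNA replication genes, limma gave 4 an unadjusted p under 0.05 with 7B12 (3 higher and 1 lower) and 1 with 11C7 (higher), and 0 passed after adjustment. Of all genes, 3.91% were higher and 2.14% lower at such a p with 7B12, and 1.13% and 1.86% with 11C7. With the replicate number as a block, 10 of the 41 were higher and 1 lower with 7B12, and 5 higher and 0 lower with 11C7. Of all 14217 genes, 972 were then higher and 710 lower with 7B12, and 396 and 455 with 11C7. After adjustment 0 passed with the block. The median change of the 41 genes was 0.097 with 7B12 (29 of 41 above 0) and 0.077 with 11C7 (28 of 41). Those of the 10 S phase members were larger, at 0.35 and 0.13, and those of all genes were 0.012 and 0.031. Dnmt1, the maintenance DNA methyltransferase, stood 0.55 ± 0.20 (SE) above the controls with 7B12, the primase subunit gene Prim2 0.56 ± 0.21, and Gmnn, whose protein geminin blocks a second round of replication, 0.86 ± 0.38. Slbp, which binds histone mRNA, differed by -0.98 ± 0.41. Gmnn also stood 1.07 ± 0.38 above the controls with 11C7, and IgG differed from NT by -1.05 ± 0.44 in it. Of 64 other mitosis genes, 1 had such a p with 7B12, the centromere gene Cenpt (1.17 ± 0.35), and 0 with 11C7, which is below the share of all genes. With the block, 3 of the 64 were higher and 1 lower with 7B12, and 0 either way with 11C7.

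Of 29 other genes of G1 and the E2F and retinoblastoma system, 3 had an unadjusted p under 0.05 with 7B12 and 2 with 11C7, all higher, and 0 passed by limma. With 7B12 these were Cdkn2b, an inhibitor of Cdk4 and Cdk6 (1.77 ± 0.61, SE), the repressor gene E2f8 (0.61 ± 0.20) and Lin37, of the complex that binds CHR elements (0.38 ± 0.17). With 11C7 they were Cdkn2b (1.43 ± 0.61) and Cdkn2a. Cdkn2a, from the same locus as Cdkn2b, stood at 0.72 ± 0.33 with 7B12 (unadjusted p = 0.0535 by limma) and 0.82 ± 0.33 with 11C7 (unadjusted p = 0.0324 by limma). Of 20 p53 target genes 0 had an unadjusted p under 0.05 with either antibody, and the median change was 0.026 with 7B12 and 0.081 with 11C7. Among the numbers, the F test called 14 of 41 DNA replication genes, 10 of them lowest in number 2, and 13 of 64 mitosis genes, 9 of them lowest in number 2. It called 5 of 29 G1 genes and 4 of 20 p53 targets. Of all genes 23.6% were called, and 6.34% were called and lowest in number 2. The shares called of the mitosis genes (20.3%), the G1 genes (17.2%) and the p53 targets (20%) were below that of all genes and that of the DNA replication genes (34.1%) above it, and these differences were not tested. The primase gene Prim1 averaged -0.41 in number 2 against 0.075 and 0.31 in numbers 1 and 3 (adjusted p = 0.00554 by limma), and the mitosis gene Pimreg -1.06 against 0.091 and 0.41 (adjusted p = 0.0144 by limma). Spag5, of the mitotic spindle, stood at 1.07 in number 1 and at -0.20 and -0.052 in numbers 2 and 3 (adjusted p = 0.00217 by limma).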

How the data were processed

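The 12 arrays (7B12, 11C7, IgG and NT, 3 each) were read in GCOS 1.4 with the MAS5 algorithm (submitters' processing notes) and normalized per chip and per gene in GeneSpring, per the series' design text. The authors deposited linear ratios per probe set. The design text names the control median as the reference, but within 0.0015 the median over all 12 arrays was 1 for 76.4% of probe sets and the control median for 11.2%, so the ratios carry no level. The table holds 31042 probe sets apart from 57 spike-ins, of which 20826 have 1 gene symbol, 436 several and 9780 none.

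From these, log2 ratios less the array median (-0.13 to -0.019 before) were averaged per gene, and 14217 genes were fitted in limma 3.58.1 (R 4.3.3) over 4 group means without a replicate term, with 5 contrasts, F tests over groups and over replicate numbers (the group kept in the model) and Benjamini-Hochberg adjustment at 0.05. No filter on low values was applied, and all 51 members entered. Lists are given by their median. The fit was tested on simulated data, with noise drawn independently for each array and inserted changes larger than those of most members. That test does not show how the fit behaves with noise shared within replicate numbers or with smaller changes. Groups and numbers come from the sample titles. P-values measure the spread between 3 pooled cultures per group, and the number of arrays limits the precision.

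Values are given for Mki67, Top2a, Pcna, Mcm2, Cdk1, Ccnb1, Ccnd1 and Cdkn1a, for every member past the adjusted threshold in any test, and for up to 3 members of each role with the smallest unadjusted p, and of each further list for up to 4 genes with the smallest p. The other members are given by their range, except Mcm3, named after its values were seen. The members and all lists were chosen with earlier results of these data known. Alternatives were the replicate block, other probe set rules, no array median, quantile normalization, a mean-variance trend, array weights, each control alone, leaving out each array, and the methods' one-way analysis of variance. The 51 symbols were matched through their Entrez IDs.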

Additional observations from a re-analysis of the deposited data

How the results depend on the processing

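No contrast called a member under any alternative fitted in limma. Where probe sets were fitted singly, the 1 with the smallest p of each gene was taken, so a turn on its other probe sets was not counted. Of the values of single genes under alternatives, 912 kept their direction and 1 did not. Tk1 with both antibodies differed by -0.0031 against NT alone (0.24 against both controls). Single probe sets turned further values. For Tk1, 1 of 3 gave -0.011 with 7B12 (0.34 for the gene) and -0.050 with both antibodies, and for Cdca4, 1 of 2 gave 0.059 in IgG against NT (-0.57 for the gene). The methods' one-way analysis of variance was taken at an unadjusted p of 0.05 and at least 1.2-fold for an antibody against the controls. It gave 3 members (Tk1, Tyms and Cdca4) and 2.97% of all genes (422), and 0 of either after Benjamini-Hochberg adjustment. Without 1 array the count of members called over the replicate numbers lay between 7 (without NT 1) and 27 (without 11C7 3). Under 7 other settings it lay between 18 (each probe set on its own) and 30 (array weights). The share of all genes called was not counted under those 7 settings. The fit without the 11C7 arrays was chosen after seeing the data.

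The labels number the replicates alike in all groups without saying what a number shares. Over all genes, deviations from the group means of same-numbered arrays correlated at 0.0969 to 0.427 (median 0.208, over 0.1 in 17 of 18 pairs) and those of other arrays at -0.32 to 0.0944, and 12 of 12 arrays were closest to their own number, which is a hint from the data and not from the design. With the replicate number as a block, 0 of 51 members were called in each of the 5 contrasts and in the F test over groups. The smallest adjusted p of a member by limma was then 0.218 for 7B12, 0.712 for 11C7, 0.328 for both antibodies, 1.00 for IgG against NT and 0.598 for 7B12 against 11C7. Signals over background were not used here, so how far dim probe sets limit these values was not tested.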

Other observations

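Rrm2, the small subunit of the reductase that makes deoxyribonucleotides, is on the list of members but was measured only by 2 probe sets that also carry the symbol Rrm2l1, so they entered no comparison. On 1 probe set the log2 ratios less the array median were 0.070, -0.57 and 0.69 in 7B12, 0.35, -0.44 and 0.049 in 11C7, 0.031, -0.77 and 0.25 in IgG, and 0.15, -1.16 and 0.057 in NT. On the other they were 0.091, -0.52 and 0.26 in 7B12, 0.76, 0.064 and -0.090 in 11C7, 0.032, -0.55 and 0.92 in IgG, and 0.42, -1.16 and -0.22 in NT. Replicate 2 was the lowest array of each group on the probe set given first, and of all groups but 11C7 on the other.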
